A study of Mus musculus with 2 samples.

Results

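Aldh1l1, Gnmt and Pld1 encode enzymes that act on folate, on the methyl donor S-adenosylmethionine and on choline-containing lipid. They were described here through every distinct region that carries their symbol in the authors' deposited table of hippocampal DNA methylation. Each gene had 1 region, so the 3 regions stood among 276 distinct regions assigned to 296 gene symbols. The table lists only regions that were selected on the difference between the same 2 libraries, so the differences below are a description and were not tested. The assay was reduced representation bisulfite sequencing (RRBS), in which fragments cut by MspI, an enzyme that recognises CCGG, are sequenced after bisulfite treatment, so that CpG-rich DNA is favoured.

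The choline library (F1m-GCS) came from hippocampi of offspring whose dams ate a supplemented diet (choline chloride at 5 g/kg) between embryonic day 9 and birth. The control library (F1m-CON) came from hippocampi of offspring whose dams ate a normal diet (choline chloride at 1.1 g/kg). Both sets of offspring ate a basal diet after birth and were tested for mood-related behaviour at 2 months. The labels give no strain, no age at dissection and no number of animals per library. Each group had 1 library, so the spread between animals is not known. A table of methylation regions holds no expression with which to check the tissue against its markers.

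Choline reaches methylation reactions by a short route. It is oxidised to betaine, which can pass a methyl group to homocysteine and so make methionine, the precursor of S-adenosylmethionine. Folate carries one-carbon units to the same methionine cycle. Choline is also the head group of phosphatidylcholine and the precursor of the transmitter acetylcholine. Aldh1l1 oxidises formyl-tetrahydrofolate to tetrahydrofolate and carbon dioxide, which takes a one-carbon unit out of the folate pool, and in brain it is widely used as an astrocyte marker. Gnmt transfers the methyl group of S-adenosylmethionine to glycine, giving sarcosine, and is best known from liver, where it limits the ratio of S-adenosylmethionine to its demethylated product. Pld1 cleaves phosphatidylcholine into choline and phosphatidic acid.

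The RefSeq promoter sequences of the 3 genes are shown because CpG sites are what the assay reads and the regions lie near gene starts. Each line holds the 250 bases before a RefSeq start in GRCm38.p6, written 5' to 3' on the gene's strand, with every CpG in capitals. The windows are chr6:90550543-90550792 (plus strand) for Aldh1l1, chr17:46729166-46729415 (minus strand) for Gnmt and chr3:27938430-27938679 (plus strand) for the upstream start of Pld1.
Aldh1l1: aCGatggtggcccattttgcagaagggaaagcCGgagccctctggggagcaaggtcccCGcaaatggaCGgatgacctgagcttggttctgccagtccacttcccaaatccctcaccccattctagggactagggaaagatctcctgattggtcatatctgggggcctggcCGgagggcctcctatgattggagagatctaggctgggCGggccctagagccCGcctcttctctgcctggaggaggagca
Gnmt: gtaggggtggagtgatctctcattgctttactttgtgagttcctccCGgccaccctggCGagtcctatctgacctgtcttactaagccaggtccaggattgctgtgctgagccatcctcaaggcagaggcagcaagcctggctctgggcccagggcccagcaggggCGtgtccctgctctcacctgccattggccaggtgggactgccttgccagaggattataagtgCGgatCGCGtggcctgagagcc
Pld1: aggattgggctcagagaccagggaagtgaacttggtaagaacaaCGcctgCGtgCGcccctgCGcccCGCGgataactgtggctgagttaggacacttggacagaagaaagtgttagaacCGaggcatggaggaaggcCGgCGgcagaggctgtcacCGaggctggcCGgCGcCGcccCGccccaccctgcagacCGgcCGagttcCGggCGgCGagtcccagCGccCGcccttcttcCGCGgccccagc

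The Pld1 window is a dense cluster of CpG sites, and the other windows are not. It held 23 CpG, more than 86.7% of the other RefSeq windows of this length. The Aldh1l1 window held 7 and the Gnmt window 6, against a median of 6 over all 32851 windows. Pld1 has another RefSeq start further downstream, and the window before that start held 4 CpG. The letters CCGG, which read the same on both strands and each contain a CpG, occurred 2 times in the Aldh1l1 window, 1 time in the Gnmt window and 4 times in the upstream Pld1 window. Of all windows, 47.1% held at least 1. These windows show the genes' promoters and were not cut to the listed regions, whose positions belong to another build than GRCm38 and were not read from this genome. By its deposited elements the Aldh1l1 region includes the 97 bases before its start. It would therefore share the end of the Aldh1l1 window if the deposited start and the RefSeq start are the same. The Gnmt and Pld1 regions lie downstream of their anchors, the first coding base and the start.

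All 3 regions lay at the 5' end of their gene, each on a different combination of elements. Positions are given as deposited, without a build. The Aldh1l1 region (chromosome 6, 90500745 to 90500876, 132 bp) spanned the transcription start, with 97 bases of upstream sequence and 35 bases of the 5' UTR. That UTR element was 123 bp long, the length of the first exon of the transcript Aldh1l1-207 in GENCODE M21. The Gnmt region (chromosome 17, 46865764 to 46865980, 217 bp) crossed a splice junction, with 86 bases of coding sequence and 131 bases of intron. The coding element was 206 bp and the intron 1553 bp long, which are the lengths of the first coding exon and first intron of Gnmt-201. The Pld1 region (chromosome 3, 27838016 to 27838037, 22 bp) lay inside an intron, from 414 to 435 bases after the start. That intron was 13762 bp long, the length of the first intron of Pld1-202.

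The table gave promoter lines, which span 1000 bp on each side of a start, to Aldh1l1 and Pld1 but not to Gnmt. The Gnmt region nevertheless began 120 bases after the first coding base, and in GENCODE M21 the transcript starts 17 bases before that base. By this annotation the region lies within 1000 bp of the start too. Of all 276 listed regions, 96 had a promoter line, so lying near a start is not particular to these genes. How many others lie near a start without such a line, as Gnmt does, was not counted. No region was shared with another gene, and no other listed region lay within 100 kb of any of the 3. The nearest was 173 kb from the Gnmt region, at Srf.

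**Figure D1:**
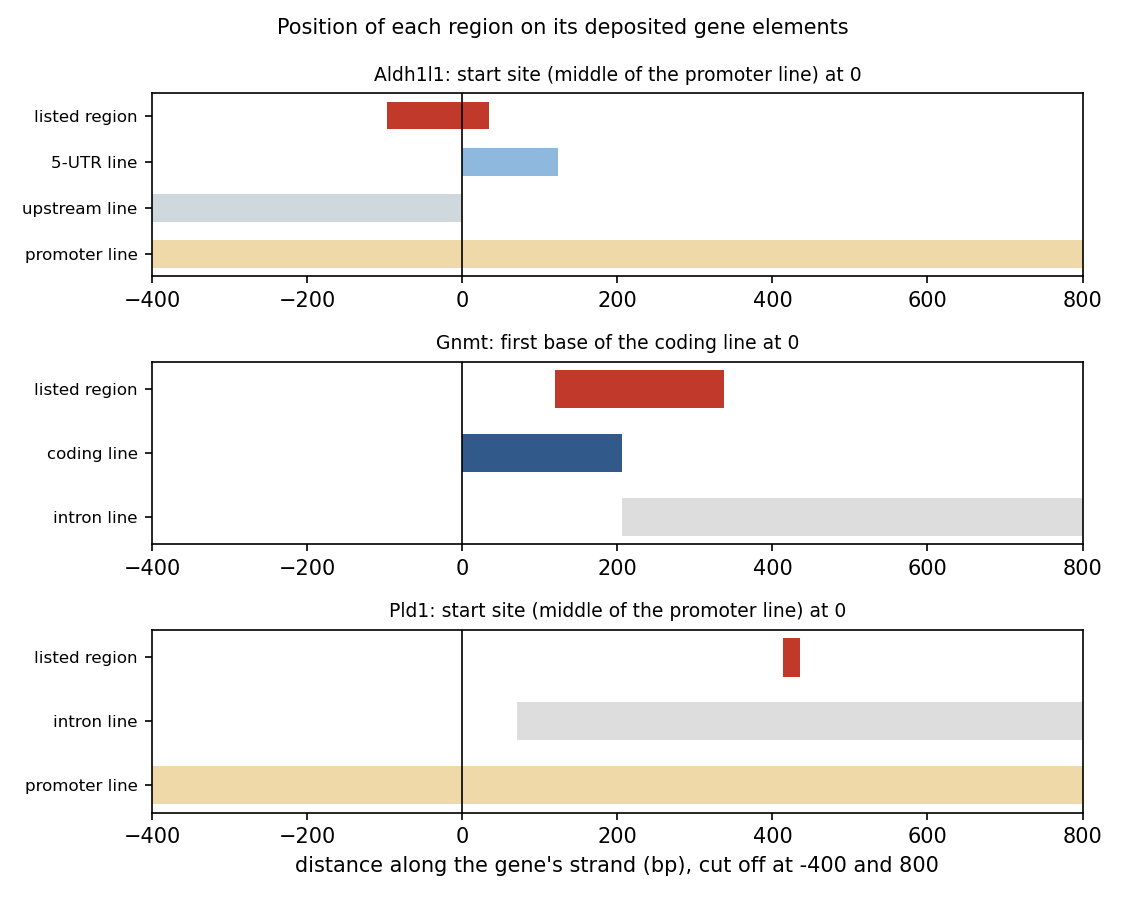
Position of each listed region (red) on the deposited elements of its gene, in bp along the gene's strand from the start site, or for Gnmt from the first base of the coding element. The Aldh1l1 region spans the start, the Gnmt region crosses from coding sequence into intron, and the Pld1 region lies 414 to 435 bp into the gene.

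The folate enzyme gene Aldh1l1 had a methylation level of 31.5% in the control library, and its level in the choline library was 58.9%. These levels rest on 23 of 73 CpG calls and 43 of 73 CpG calls over 5 CpG sites, with the same mean depth of 14.6 reads per site in both libraries. The exact Clopper-Pearson 95% intervals on calls were 21.1 to 43.4% and 46.8 to 70.3%, and they did not overlap. A call is 1 read at 1 CpG site, and calls on the same read are not independent. With reads as the unit, so that the mean depth stands for the number of observations, the intervals were 10.5 to 60.3% and 31.0 to 83.2%, and they overlapped. Mean depth is an average over sites, and a region holds more reads than that where a read does not cover every site. Read counts taken this way also need not be whole, so intervals on reads are approximate. All intervals cover counting error only, since each group had 1 library. The regions were listed for a difference between these same libraries, so intervals on calls that lie apart add no support for it. The libraries also carried no stated molecular identifiers, so reads copied from the same molecule could not be told apart.

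At Aldh1l1 the choline library was higher by 27.4 percentage points (Newcombe 95% interval 11.3 to 41.6 on calls, -7.82 to 54.6 on reads). This was the third largest of the 276 listed differences in absolute size. The region held 5 CpG sites, the fewest of any listed region, as did 42 others, Pld1 among them. Its choline level was also high for a listed region, with 5 of the other 275 above it. Of the 7 other regions that touch a promoter, a 5' UTR and upstream sequence and nothing else, all 7 had a lower level in both libraries and a smaller difference. Their median level was 2.03% in the control library against 15.4% after choline. Of these 7 regions, 5 were shallower than Aldh1l1 in the choline library and 0 in the control library. At Aldh1l1 depth was even between the libraries. It was low for a listed region in the control library, where 12.4% of the others were shallower, and near the middle in the choline library, where 43.6% were.

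The methyltransferase gene Gnmt had a level of 15.6% in the control library, against 26.7% after maternal choline. It had the most CpG calls of the 3, with 85 of 544 and 130 of 486 calls methylated, over 17 CpG sites against 5 at each of the others. Mean depths were 32.0 and 28.6 reads per site. The exact Clopper-Pearson 95% intervals on calls were 12.7 to 19.0% and 22.9 to 30.9%, which do not overlap. With reads as the unit the approximate intervals were 5.28 to 32.8% and 12.04 to 46.5%, which do overlap.

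The difference at Gnmt was 11.1 percentage points higher in the choline library (Newcombe 95% interval 6.14 to 16.1 on calls, -9.42 to 31.4 on reads). It stood close to the edge of the table, whose smallest listed difference is 10 points, and 32.7% of the other listed regions had a smaller one. Its ratio between the libraries was 1.71, and the smallest listed ratio was 1.504. Among the 28 other regions made of coding sequence and intron alone, 8 had a smaller difference and 6 a lower control level. Of those 28 regions, 27 were shallower than Gnmt in the choline library and 25 in the control library.

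The phospholipase gene Pld1 stood at 16.0% in the control library and was nearly unmethylated after maternal choline, at 2.33%. The control level rests on 30 of 187 calls and the choline level on 1 of 43 calls, over 5 CpG sites. With 43 calls, 1 methylated call more or less would move the choline level by 2.33 points. The exact Clopper-Pearson 95% intervals on calls were 11.1 to 22.1% and 0.0589 to 12.3%, which overlap slightly. With reads as the unit the control interval was 6.12 to 31.7%, and the choline level could be as high as 38.3%.

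Pld1 differed by -13.7 percentage points, lower in the choline library (Newcombe 95% interval -19.95 to -2.97 on calls, -28.7 to 19.1 on reads). Depth was uneven here, at 37.4 reads per site in the control library against 8.60 with choline. The ratio of these depths, 0.230, was undercut by 22 of the other 275 regions. Its part in the difference was not tested. With 22 bp the region was among the shortest, as 7 others were shorter, and with 22.7 CpG per 100 bp it was denser than 250 of the other 275. Of the 10 other regions made of promoter and intron alone, the choline library was higher in 7 and lower in 3, and none had a choline level below that of Pld1.

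**Figure D2:**
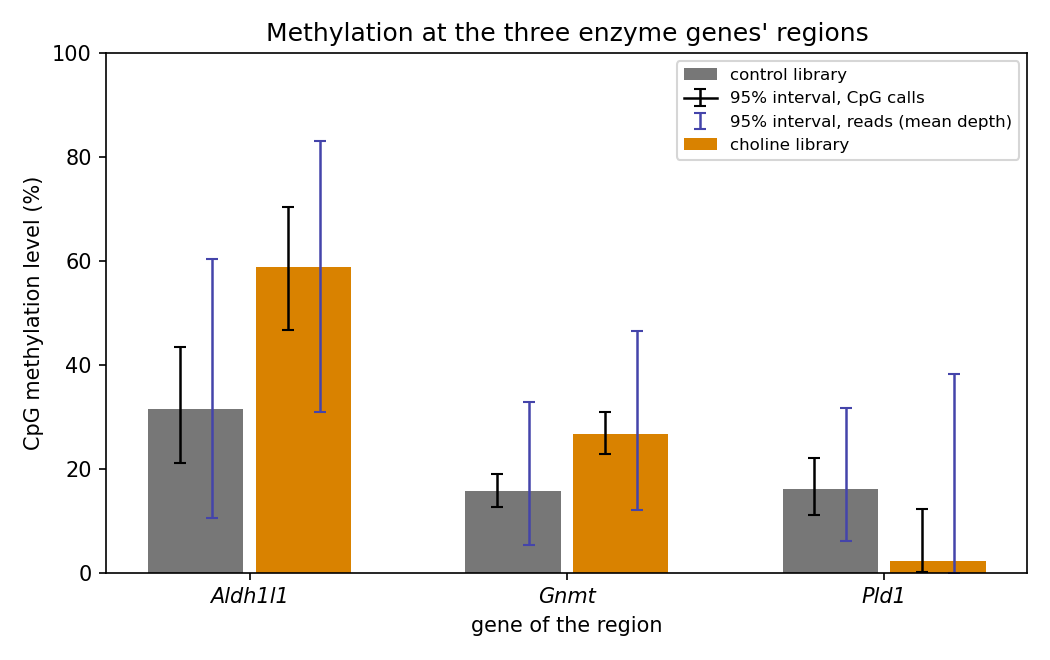
CpG methylation level (%) of the region at each gene in the control (grey) and choline (orange) library, 1 library each, with exact 95% intervals on CpG calls (black). Approximate 95% intervals on reads, taken as the mean depth, are in blue. The black intervals are apart at Aldh1l1 and Gnmt and overlap slightly at Pld1, and the blue intervals overlap at all 3 genes. The regions were listed for a difference between these libraries, so intervals that lie apart are a description.

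The 3 genes did not share a direction. The regions of Aldh1l1 and Gnmt, whose enzymes take one-carbon or methyl groups from their donors, had higher methylation in the choline library. The region of Pld1, whose enzyme frees choline, had lower methylation there. A link between an enzyme's step and the direction was not tested. Of all 276 listed regions, the choline library was higher in 73.6% and lower in 26.4%, so 2 of 3 higher is near that background, and the listing itself used this contrast. Differences of the 3 genes ran from -13.7 to 27.4 points, against a median absolute difference of 12.5 points over all listed regions. Control levels of Gnmt and Pld1 were alike, at 15.6% and 16.0%, and close to the median of 15.9% over all listed regions. The choline levels of these genes lay on opposite sides of the median of 20.1%. Aldh1l1 stood above both medians in both libraries.

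**Figure D3:**
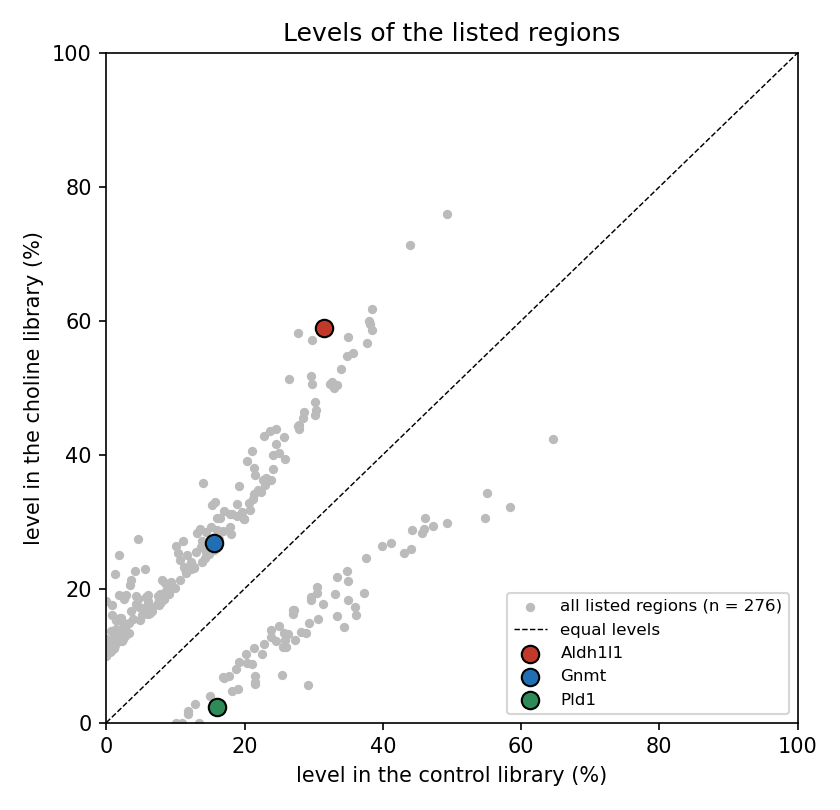
Level in the choline library against level in the control library (%) for all 276 listed regions (grey), with the 3 genes marked and a dashed line of equal levels. The empty band along the line shows that regions with small differences are not listed, and Aldh1l1 and Gnmt lie above it and Pld1 below it.

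Depth set Pld1 apart from Aldh1l1 and Gnmt, as direction did, and a link between depth and direction was not tested. The depth of the choline library equalled that of the control at Aldh1l1 and was 0.893 times at Gnmt and 0.230 times at Pld1, against a median of 0.672 over the 276 regions. Only Pld1 fell below a depth of 10, and only Gnmt exceeded 20 in both libraries. Among the 84 listed regions with a depth below 10 in either library, the choline library was higher in 73 and lower in 11, and Pld1 was one of the 11. CpG content differed as well, with 3.79 CpG per 100 bp at Aldh1l1, 7.83 at Gnmt and 22.7 at Pld1, against a median of 8.92.

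**Figure D4:**
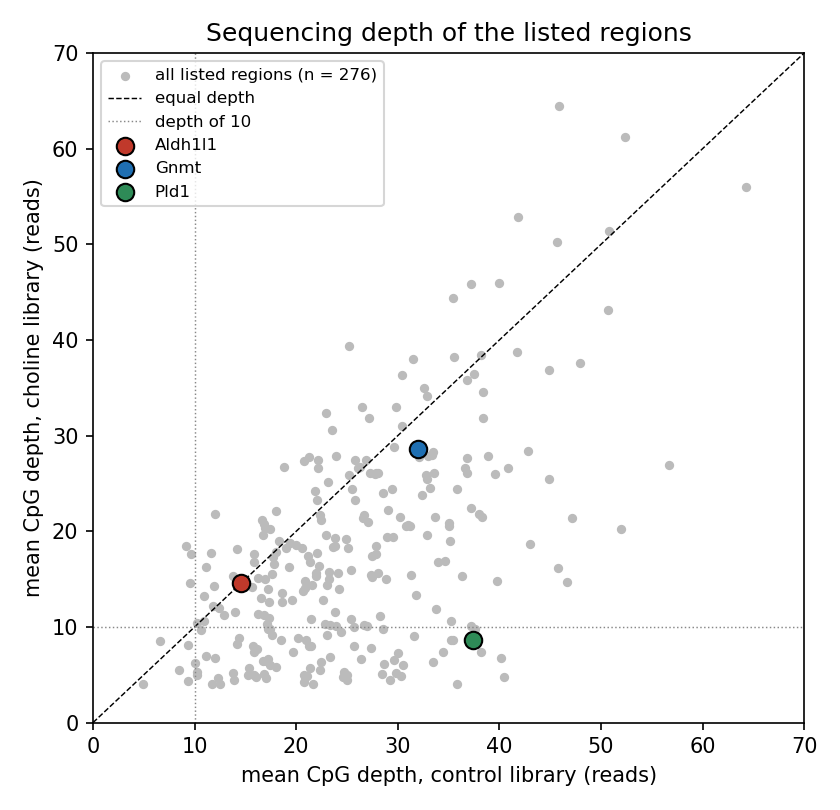
Mean depth per CpG site (reads) in the choline library against the control library for the 276 listed regions (grey) and the 3 genes, with a dashed line of equal depth and dotted lines at a depth of 10. Aldh1l1 lies on the line of equal depth, Gnmt just below it, and Pld1 far below it with 37.4 and 8.60 reads.

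In the authors' deposited table the adjusted p-values were 5.71e-05 at Gnmt, 0.00257 at Aldh1l1 and 0.0158 at Pld1. These values compare 2 libraries, and no region in the table has one above 0.0485, so they are given as a description. Gnmt, with the smallest p of the 3, had the smallest difference and the most calls.

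The other genes of choline, folate and methyl metabolism had no listed region. The list held 90 genes in 9 groups by step, and 3 of the 90 (3.33%) had a region, 2 higher and 1 lower in the choline library. Of all 21900 protein-coding RefSeq genes, 274 (1.25%) had a listed region. The 3 were picked from the table as members of this pathway, so nothing is read from the difference between these shares. The groups are broad, and not every member carries out the step that its group is named for. Pld1 was the single listed gene of the 17 grouped under release of choline from lipids. Gnmt was the single one of 13 grouped under the methionine cycle and small-molecule methyltransferases. Aldh1l1 was the single one of 26 grouped under folate uptake and one-carbon units. None of the 6 genes of choline uptake, such as the high-affinity transporter Slc5a7, was listed. The same held for the 7 genes that build phosphatidylcholine, among them Chka and Pemt, and for the 4 genes of acetylcholine, such as Chat. The 6 genes grouped under the oxidation of choline to glycine, Chdh and Bhmt among them, also had none. None was listed at the 2 genes of transsulfuration, Cbs and Cth, nor at the 9 of DNA methylation and its removal, such as Dnmt1 and Tet1. Coverage of a gene without a listed region is not known here, so its methylation may or may not have differed.

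The listed regions most like each gene were found by the summed difference in rank of both levels and both depths over the 276 regions. For Aldh1l1 they were at Bsn, Des and Cabp1, with control levels of 32.6 to 34.8% and choline levels of 50.9 to 54.8%. The 3 were all higher in the choline library, by 18.2 to 19.96 points, less than the 27.4 points of Aldh1l1. For Gnmt they were at Krt18, Nfix and Npas1, with control levels of 15.6 to 16.4%, choline levels of 25.8 to 30.5% and differences of 10.1 to 14.1 points. Because both levels entered the match, close matches share a gene's direction by construction. Pld1 had no close match. Its nearest, at Pgam1, had a summed rank difference of 136, against 30 for Bsn and 37 for Krt18. The next were at Arhgef17, with 13.5% and 0%, and at Ubr4, which differed in the other direction.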

How the data were processed

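One RRBS library per group was compared through 1 deposited table. MspI digestion of 500 ng DNA was followed by selection of inserts from 40 to 220 bp and 2 rounds of bisulfite treatment, per the labels' protocols. The design text of the series names cutadapt for trimming and SOAPaligner 2.21 for alignment with up to 5 mismatches, and the submitters' processing notes add CASAVA 1.8. How regions were called, and with which thresholds, is not given in the sources used here. As deposited by the authors, the table holds a methylation fraction per region and library. Its coverage (signal), as deposited, is a mean depth over the CpG sites, and its count of CpG sites is given per the file headers. The p-values and adjusted p-values are the authors' own.

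The 725 lines were reduced to 276 distinct regions. Symbols that had lost letters in promoter lines were restored from other lines of the same region in 70 lines, none at these genes. Level times depth times CpG number gave whole calls (tolerance 1e-06) in 259 regions, all 3 described here included. Exact intervals used SciPy 1.17.1, and the code was tested on simulated calls. The design text names mm10 and the processing notes mm9 and mm10. The 3 regions lay 49.9 kb (Aldh1l1), 137 kb (Gnmt) and 100.4 kb (Pld1) outside their genes in GRCm38, so positions are printed as deposited. Elements were matched to GENCODE M21 by length only. The share of protein-coding RefSeq genes with a listed region (274 of 21900) was added after the data were seen, and coverage of the other genes is not known. Of 10 astrocyte markers looked up (Aldh1l1, Gfap, Aqp4, S100b, Slc1a2, Slc1a3, Aldoc, Gja1, Sox9 and Glul), 1 was listed, the enzyme gene Aldh1l1 itself. Promoter sequences were taken from RefSeq (GRCm38.p6), where all 3 genes matched.

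The 3 genes and the pathway list of 90 genes (all current symbols) were chosen with earlier results of these data known. The genes named are these 3, genes that share or neighbour their regions, the pathway list, and the 3 listed regions most alike to each by rank. The design called for ranges alone for the last, and their genes were named after the values were seen, as were Srf and the examples of unlisted pathway genes. Alternatives were the source of the level, 0.5 calls added to each state, depth minimums of 10 and 20, the set of regions compared, an adjusted p of at most 0.01, symbols as deposited and promoter lines only.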

Additional observations from a re-analysis of the deposited data

How the results depend on the processing

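The differences at Aldh1l1, Gnmt and Pld1 kept their direction under every alternative that gave a value, but these alternatives could hardly have reversed it. Whole calls restate the deposited level, and a depth minimum only keeps or drops a region. With 0.5 calls added to each state the differences were 27.0, 11.1 and -12.8 points. Pld1 has no value at a depth minimum of 10, and at 20 Gnmt alone has one. The share of listed regions with a smaller absolute difference than Pld1 moved from 61.5% to 52.8% when compared with the 72 others lower in the choline library, a smaller set by construction. The share of listed regions higher in the choline library moved from 73.6% to 67.7% at a depth of at least 10, and the cause was not tested. Of the 90 pathway genes, 3 had a region, and 2 at a depth of at least 10 or an adjusted p of at most 0.01 (Pld1 drops out of both), and 2 in promoter lines alone (Gnmt drops out). Leaving out a library was not possible, and no paired analysis was possible because each group has 1 library. Depth limits Pld1 most, with 43 calls in the choline library.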
